A study of Mus musculus with 6 samples.

Results

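The BCL2 family of apoptosis regulators was followed through 10 genes: Bcl2, Bcl2l1, Mcl1, Bax, Bak1, Bid, Bcl2l11, Bbc3, Pmaip1 and Bmf. The list was set by gene symbol and role, but with earlier results of these data known. They are 10 of 46983 genes in the count table, and all 10 were among the 13705 genes with enough reads to be tested. The cells were mouse leukemias driven by MLL-AF9, the product of a translocation in acute myeloid leukemia. Hematopoietic stem and progenitor cells, sorted as Lin-Sca-1+c-Kit+, were taken from C57BL/6J marrow that was either Alox5-/- or wild type (WT), transduced with an MLL-AF9 retrovirus, and transplanted as GFP-positive cells into irradiated C57BL/6J recipients. Poly-A RNA was sequenced from 3 untreated Alox5-/- libraries and 3 untreated WT libraries. Alox5 encodes 5-lipoxygenase, which begins leukotriene synthesis, and the series asks how it bears on the survival and chemoresistance of leukemic stem cells. Both groups carry the same oncogene, and the C57BL/6J recipients are not described as lacking Alox5. Age, sex and the number of animals behind the libraries are not given in the labels, so p-values measure the spread between these libraries only.

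Proteins of the BCL2 family decide at the mitochondrial outer membrane whether a cell enters apoptosis. The guardians BCL2, BCL-XL (from Bcl2l1) and MCL1 hold back the effectors BAX and BAK, which otherwise form pores that release cytochrome c. BH3-only proteins such as BIM (from Bcl2l11), PUMA (from Bbc3), NOXA (from Pmaip1), BMF and BID occupy the guardians or activate the effectors directly. Myeloid leukemia cells often lean on BCL2 or MCL1, which is why inhibitors of these guardians are used as drugs.

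RefSeq promoter sequence (GRCm38.p6, the build called mm10) was at hand for 9 of the 10 genes, all but Pmaip1. It is shown for 4 of the genes whose transcripts differed between the genotypes, 1 of them lower and 3 higher in Alox5-/- cells. Each run is the gene's own strand, 5′ to 3′, and ends just before the transcript start. They are Bax at chr7:45466899-45467148 (minus strand), Bmf at chr2:118549688-118549936 (minus strand), Bcl2l11 at chr2:128125788-128126037 (plus strand) and Bcl2 at chr1:106714291-106714540 (minus strand). Capitals mark matches, on either strand, to the CHOP and ATF4 element TGATGNAA, the FOXO element GTAAACA, the E-box CACGTG, the AP-1 element TGANTCA, the E2F element TTTCGCGC, the GC box GGGCGG, or the p53 decamer, the repeat unit of the p53 response element.
Bax: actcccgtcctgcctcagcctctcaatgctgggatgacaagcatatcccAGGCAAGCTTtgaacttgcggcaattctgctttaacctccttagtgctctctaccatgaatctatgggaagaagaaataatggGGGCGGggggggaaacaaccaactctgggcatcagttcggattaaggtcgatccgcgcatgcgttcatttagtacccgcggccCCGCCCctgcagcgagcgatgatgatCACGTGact
Bmf: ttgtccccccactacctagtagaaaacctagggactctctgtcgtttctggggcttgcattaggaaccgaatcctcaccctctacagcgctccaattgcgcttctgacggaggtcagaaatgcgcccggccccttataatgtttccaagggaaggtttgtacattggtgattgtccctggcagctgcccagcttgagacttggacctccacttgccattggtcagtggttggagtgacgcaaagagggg
Bcl2l11: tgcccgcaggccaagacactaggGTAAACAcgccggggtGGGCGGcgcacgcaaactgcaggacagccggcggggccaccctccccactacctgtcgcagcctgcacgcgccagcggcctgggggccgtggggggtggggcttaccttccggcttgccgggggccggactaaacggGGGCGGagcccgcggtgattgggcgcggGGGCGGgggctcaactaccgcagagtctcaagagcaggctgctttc
Bcl2: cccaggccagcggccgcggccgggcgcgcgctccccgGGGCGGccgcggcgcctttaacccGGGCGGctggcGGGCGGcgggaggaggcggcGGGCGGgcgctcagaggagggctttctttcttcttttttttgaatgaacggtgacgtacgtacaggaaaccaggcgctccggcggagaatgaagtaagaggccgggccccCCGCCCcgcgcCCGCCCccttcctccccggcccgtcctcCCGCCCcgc

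The Bax promoter held a p53 decamer at 201 to 192 bases upstream of the start, an E-box at 9 to 4 bases and 2 GC boxes. A p53 decamer is found in 7.13% and an E-box in 6.02% of 32851 mouse promoter windows of 250 bases. The Bcl2l11 promoter held a FOXO element at 227 to 221 bases upstream, as 3.17% of windows do, and 3 GC boxes. The Bcl2 promoter held 7 GC boxes and none of the other elements, and 32.7% of windows hold a GC box. RefSeq lists 3 starts for Bmf and 2 for Bcl2l11, and the outermost is shown for each. The Bmf window shown held none of the 7 elements, but 1 of its other windows held a p53 decamer at 213 to 204 bases upstream, and the second Bcl2l11 window held 2 GC boxes. The CHOP and ATF4 element, present in 3.45% of windows, the AP-1 element (6.75%) and the E2F element (0.256%) did not occur in these 4 windows. The windows of Bcl2 and Bcl2l11 were rich in G and C, at 74.8% and 72.0%, against 54.0% for Bax and Bmf and a median of 52.4% over all windows. Genes not found to differ held such elements too. Windows of Bbc3 held a FOXO element at 167 to 161 bases upstream, an E-box at 64 to 59 bases and several GC boxes. A Bcl2l1 window held an E2F element at 145 to 138 bases upstream. These matches describe the letters alone and no binding was measured.

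The libraries held 28985597 to 38695948 gene counts each, 60.0 to 60.9% of all reads. Alox5 itself, the targeted gene, stood at 65.6, 62.1 and 64.9 CPM (reads scaled for the depth of each library) in Alox5-/- libraries, against 102, 106 and 106 CPM in WT libraries. Its transcript was therefore lower but present, and as counts cover the whole gene they check the genotype labels only in part. Alox5-/- replicate 2 stood farthest from the others of its group (chi-square per degree of freedom over genes of 9.10 and 10.3, against 2.19 to 5.08 for the other pairs within a genotype). Among markers of the sorted cell, Kit was at 134 to 139 CPM in Alox5-/- cells and 156 to 162 CPM in WT, while Ly6a, which encodes Sca-1, was at 0.581 to 0.866 CPM in Alox5-/- cells and 0.875 to 1.21 CPM in WT. Cd34 went the other way, at 224 to 230 CPM in Alox5-/- cells and 174 to 180 CPM in WT. The 7 genes of that list summed to 359 to 369 CPM in Alox5-/- cells and 332 to 343 CPM in WT. Every Alox5-/- library lay above every WT library for 1 of the 7 genes and below for 4. The MLL-AF9 program summed over 10 genes (Hoxa9, Meis1 and others) reached 1517 to 1562 CPM in Alox5-/- cells and 1486 to 1540 CPM in WT. That sum hides genes that lay apart in both directions, with every Alox5-/- library above every WT library for 4 of them (Flt3 at 20.2 to 22.5 CPM in Alox5-/- cells and 11.3 to 11.5 CPM in WT) and below for 4 others (Eya1 at 1.24 to 1.74 CPM in Alox5-/- cells and 8.15 to 8.61 CPM in WT). T, NK and B cells were sparse by their defining genes, with Cd3e, Cd3g and Ncr1 at 0 in every library and a B cell list at 1.51 to 1.96 CPM in Alox5-/- cells and 1.48 to 2.28 CPM in WT. Some marker sums moved with genotype. The 8 macrophage genes summed to 97.7 to 101 CPM in Alox5-/- cells and 79.4 to 84.5 CPM in WT, with Marco at 0 throughout. Cd68 and Vcam1 were higher but Adgre1 lower in every Alox5-/- library. The 9 T and NK cell genes were mostly Lck and Nkg7. They summed to 33.5 to 37.4 CPM in Alox5-/- cells and 23.3 to 29.4 CPM in WT. The 6 mast cell and basophil genes summed to 112 to 117 CPM in Alox5-/- cells and 175 to 187 CPM in WT. Of these, Fcer1a was at 0 throughout. Most of the gap was Hdc, at 33.2 to 37.9 CPM in Alox5-/- cells and 91.0 to 100.1 CPM in WT. Cpa3 was also lower, and Ms4a2 higher, in every Alox5-/- library than in any WT library. Further, 7 erythroid genes, nearly all of them Tfrc, summed to 288 to 313 CPM in Alox5-/- cells and 560 to 620 CPM in WT, 7 stromal and endothelial genes, mainly Pecam1, to 208 to 212 CPM in Alox5-/- cells and 184 to 187 CPM in WT. The granulocyte and monocyte list was at 5465 to 5584 CPM in Alox5-/- cells and 5224 to 5560 CPM in WT, a sum led by Ctsg. Ctsg was higher in Alox5-/- cells (2694 to 2743 CPM) than in WT (2177 to 2260 CPM), whereas Mpo was lower, at 59.1 to 74.2 CPM in Alox5-/- cells and 183 to 210 CPM in WT, as was S100a8, at 7.22 to 8.54 CPM in Alox5-/- cells and 24.5 to 26.5 CPM in WT. Of the 14 table entries of that list, 7 lay lower and 2 higher in every Alox5-/- library than in any WT library. Xist was at 167 to 196 CPM in Alox5-/- cells and 1683 to 1911 CPM in WT, with no more than 1 count of any of 4 Y-linked genes in any library. The part of these differences in the results for the BCL2 family was not tested, and in sorted populations a change in cell makeup and a change of RNA per cell cannot be told apart.

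Alox5-/- leukemia cells had less transcript of both pore-forming effectors, Bax and Bak1, and more of 4 BH3-only genes, Pmaip1, Bmf, Bcl2l11 and Bid. Of the guardians only Bcl2 was called, and it was higher. Differences were small, between 1.07-fold and 1.82-fold in size among the called genes. In all, 5 of the 10 genes were higher and 2 lower at an adjusted p under 0.05 (edgeR quasi-likelihood test, Benjamini-Hochberg over all tested genes). The background was high, since 53.8% of all tested genes passed the same threshold, 26.8% in the higher and 27.0% in the lower direction. A count of 7 in 10 against that background is no result particular to the family. The median log2 fold change of the 10 genes was 0.17, against 0.00 over all tested genes.

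**Figure D1:**
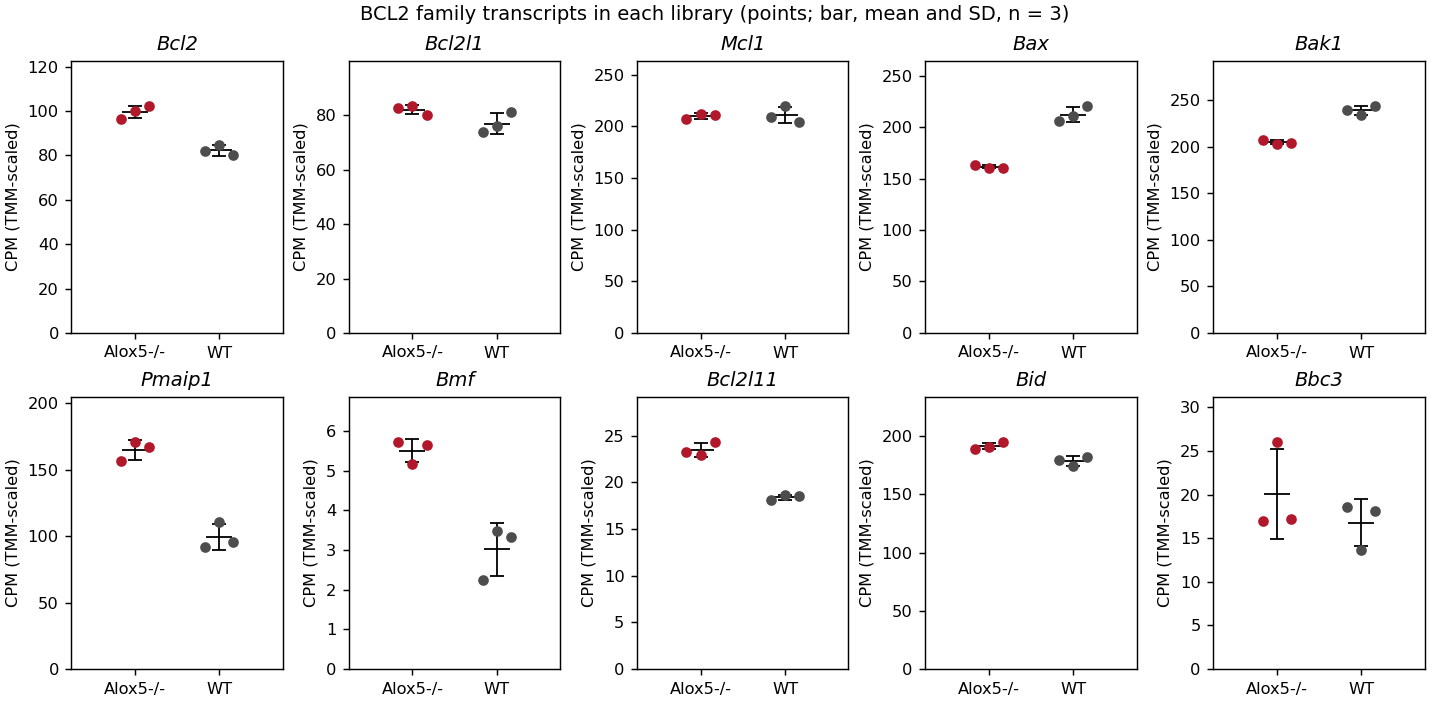
Transcript level of each BCL2 family gene in CPM (y axis, from 0) in the 3 Alox5-/- and 3 WT libraries; points are libraries and bars give the mean and SD. Bax and Bak1 lie lower, and Pmaip1, Bmf, Bcl2l11, Bcl2 and Bid higher, in every Alox5-/- library than in any WT library, while Bbc3 is set apart by 1 Alox5-/- library at 26.0 CPM.

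Among the guardians, Bcl2 (chromosome 1, 106538178 to 106714274, mm10) is the first known member and the target of venetoclax. It had 96.6, 100.3 and 102 CPM in Alox5-/- libraries, against 82.0, 84.9 and 80.1 CPM in WT libraries. Every Alox5-/- library lay above every WT library. The mean was 99.7 ± 2.84 CPM in Alox5-/- cells and 82.3 ± 2.41 CPM in WT cells (SD, n = 3 each), a log2 fold change of 0.28 (standard error, SE, 0.04; edgeR adjusted p = 1.66e-05).

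Bcl2l1 (chromosome 2, 152780668 to 152831728) encodes BCL-XL, which protects erythroid cells and platelets among others. It had 82.7, 83.3 and 80.2 CPM in Alox5-/- libraries, against 73.7, 76.2 and 81.2 CPM in WT libraries. WT replicate 3 lay within the range of the Alox5-/- libraries, so the groups overlapped. The log2 fold change was 0.09 (95% interval 0.00 to 0.18) and was not called (edgeR adjusted p = 0.0763), though it was called without WT replicate 3 (0.13; adjusted p = 0.0188) and under 2 other settings.

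Mcl1 (chromosome 3, 95658788 to 95663176) encodes a short-lived guardian on which many myeloid cells depend. It had 207, 212 and 211 CPM in Alox5-/- libraries, against 209, 219 and 204 CPM in WT libraries. The WT libraries spanned those of Alox5-/-, and the log2 fold change of -0.01 had a 95% interval of -0.08 to 0.07 (edgeR adjusted p = 0.901). Its sign turned under several settings. A larger absolute change was seen in 98.4% of tested genes.

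Both effectors were lower. Bax (chromosome 7, 45461697 to 45466898) encodes a cytosolic protein that moves to mitochondria when activated. It had 163, 161 and 161 CPM in Alox5-/- libraries, against 206, 211 and 220.3 CPM in WT libraries. The groups were well separated, and the Alox5-/- libraries were nearly level. Bax averaged 162 ± 1.45 CPM in Alox5-/- cells and 212 ± 7.40 CPM in WT cells (SD, n = 3 each), which is 1.31-fold lower in Alox5-/- (log2 fold change -0.39, SE 0.03; edgeR adjusted p = 1.59e-07).

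Bak1 (chromosome 17, 27019810 to 27029009) encodes BAK, the effector resident on mitochondria. It had 207, 203 and 204 CPM in Alox5-/- libraries, against 239.5, 234 and 243 CPM in WT libraries. No libraries overlapped. The means were 205 ± 2.22 CPM in Alox5-/- cells and 239 ± 4.69 CPM in WT, 1.17-fold lower in Alox5-/- (log2 fold change -0.22, SE 0.03; edgeR adjusted p = 2.27e-05). Exons of Ggnbp1 on the opposite strand overlap those of Bak1 by 437 bases, and Ggnbp1, named for this overlap after its values were seen, was higher in Alox5-/- (13.6, 12.2 and 10.9 CPM) than in WT (7.10, 6.67 and 6.79 CPM). Since the strand setting is not given, reads of the shared stretch cannot be assigned with certainty. Of the other genes, Bcl2, Bax and Bid also share exon bases with a neighbour.

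The BH3-only genes held the greatest differences of the family. Pmaip1 (chromosome 18, 66458533 to 66465565) encodes NOXA, which binds MCL1 and promotes its breakdown. It had 156, 171 and 167 CPM in Alox5-/- libraries, against 91.7, 111 and 95.6 CPM in WT libraries. All Alox5-/- libraries exceeded all WT libraries by a wide margin. The means were 165 ± 7.36 CPM in Alox5-/- cells and 99.3 ± 9.98 CPM in WT cells (SD, n = 3 each), a rise of 1.66-fold (log2 fold change 0.73, SE 0.06; edgeR adjusted p = 5.06e-08). Only 8.57% of tested genes had a larger absolute log2 fold change.

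Bmf (chromosome 2, 118528757 to 118549687), whose product is tethered to the cytoskeleton through dynein light chain and freed by stress, was the scarcest of the 10 genes. It had 178, 151 and 168 reads in Alox5-/- libraries, against 67, 103 and 127 reads in WT libraries, or 5.71, 5.16 and 5.65 CPM in Alox5-/- against 2.24, 3.47 and 3.33 CPM in WT. The groups did not overlap, and WT replicate 1 was the lowest library. Bmf rose 1.82-fold, with the widest interval among called members (log2 fold change 0.86, 95% interval 0.57 to 1.15; edgeR adjusted p = 7.48e-05).

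Bcl2l11 (chromosome 2, 128126038 to 128162547) encodes BIM, a BH3-only protein that binds all guardians and is needed for the death of blood cells deprived of growth factor. It had 23.3, 22.9 and 24.3 CPM in Alox5-/- libraries, against 18.1, 18.6 and 18.5 CPM in WT libraries. Within each genotype the libraries were almost level, and the groups were apart. The log2 fold change was 0.35 (SE 0.05; edgeR adjusted p = 7.34e-05).

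Bid (chromosome 6, 120891930 to 120916853) links death receptors to mitochondria once caspase-8 has cut its product. It had 189, 190.3 and 195 CPM in Alox5-/- libraries, against 179.8, 174 and 182 CPM in WT libraries. The groups did not overlap, but the gap between them was narrow. Its log2 fold change of 0.10 (95% interval 0.03 to 0.17; edgeR adjusted p = 0.0157) was the smallest among called members, and it was no longer called without Alox5-/- replicate 3 (adjusted p = 0.0690). Bid lies 4.43 Mb from Alox5 on chromosome 6 and shares 628 exon bases with Bcl2l13 on the opposite strand, which had a log2 fold change of 0.09.

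Bbc3 (chromosome 7, 16308393 to 16318205) encodes PUMA, a BH3-only protein best known as a p53 target. It had 17.0, 26.0 and 17.2 CPM in Alox5-/- libraries, against 18.6, 13.7 and 18.1 CPM in WT libraries. Alox5-/- replicate 2 stood above all the others, and the remaining Alox5-/- libraries lay within the WT range. Bbc3 was not called (log2 fold change 0.25, 95% interval -0.05 to 0.55; edgeR adjusted p = 0.152), and the log2 fold change was 0.03 without Alox5-/- replicate 2 (adjusted p = 0.845).

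**Figure D2:**
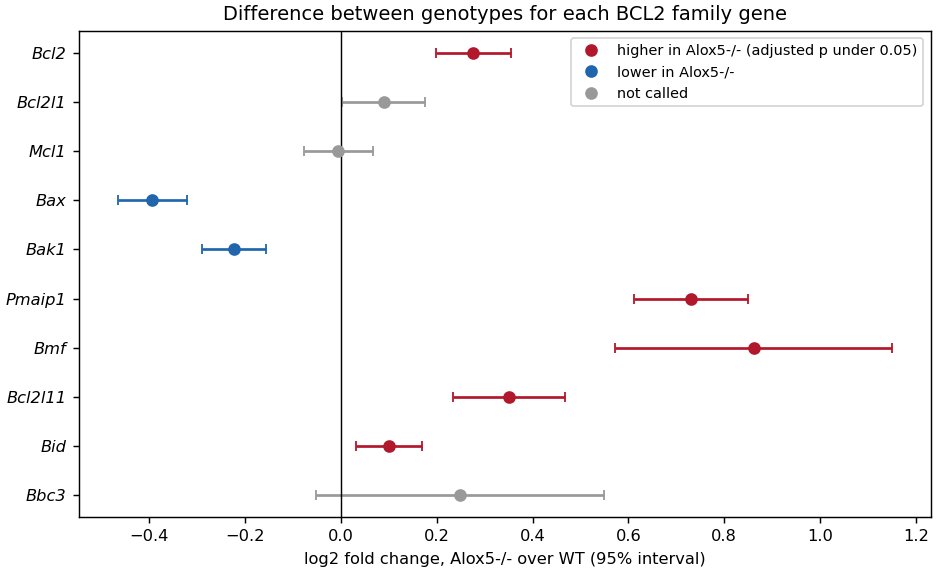
Log2 fold change of Alox5-/- over WT for each gene (x axis) with its 95% interval from the edgeR fit, ordered by role from guardians through effectors to BH3-only genes. Bax (-0.39) and Bak1 (-0.22) lie left of zero, Pmaip1 (0.73) and Bmf (0.86) farthest right, and the intervals of Mcl1 and Bbc3 span zero.

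The libraries of the genotypes did not overlap for 7 of the 10 genes, against 60.0% of all tested genes. When the test asked for a change beyond 1.2-fold, 3 of the 10 genes were called, Pmaip1 and Bmf higher and Bax lower, against 17.9% of all tested genes. Bcl2, Bcl2l11, Bak1 and Bid were not called under that rule. The 7 calls are therefore of unequal size, with Pmaip1, Bmf and Bax carrying changes whose intervals clear the minimum.

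To compare genes with one another, CPM were divided by exon length in kilobases, with exons merged over all annotated transcripts. On that scale Bax was the most abundant member, at 103 ± 0.922 in Alox5-/- and 135 ± 4.69 in WT (CPM per kilobase, SD, n = 3 each), followed by Bak1 at 85.0 ± 0.923 in Alox5-/- and 99.3 ± 1.95 in WT. Mcl1 was next and led the guardians, at 61.4 ± 0.800 CPM per kilobase in Alox5-/- and 61.6 ± 2.28 in WT. In Alox5-/- cells Pmaip1 (60.3 ± 2.69 CPM per kilobase) did not differ from Mcl1 beyond the spread of the libraries and stood above Bid (53.9 ± 0.786). In WT cells Bid (50.3 ± 1.15 CPM per kilobase) stood above Pmaip1 (36.4 ± 3.65). The order of Pmaip1 and Bid rests on the choice of length: with the longest transcript of each gene, Bid was above Pmaip1 in both genotypes (79.3 and 60.4 CPM per kilobase in Alox5-/-), and above Mcl1.

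Bcl2l1 and Bcl2 were below Mcl1. Bcl2l1 was at 17.9 ± 0.366 CPM per kilobase in Alox5-/- and 16.8 ± 0.830 in WT, and Bcl2 at 10.9 ± 0.311 in Alox5-/- and 8.99 ± 0.263 in WT. Bbc3 was at 9.44 ± 2.42 CPM per kilobase in Alox5-/- and 7.91 ± 1.26 in WT; its range overlapped that of Bcl2 in Alox5-/- libraries and lay below it in WT libraries. Bcl2l11 (2.93 ± 0.0889 in Alox5-/- and 2.29 ± 0.0328 in WT) and Bmf (1.05 ± 0.0572 in Alox5-/- and 0.574 ± 0.128 in WT) closed the order. With the longest transcript Bcl2l1 stood higher, at 31.9 CPM per kilobase in Alox5-/- and 29.99 in WT, as did Bcl2l11 at 4.66 in Alox5-/- and 3.66 in WT, and both kept their place in the order. Against all tested genes, Bax stood above 97.4% and Bmf above 17.4% in level per kilobase.

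**Figure D3:**
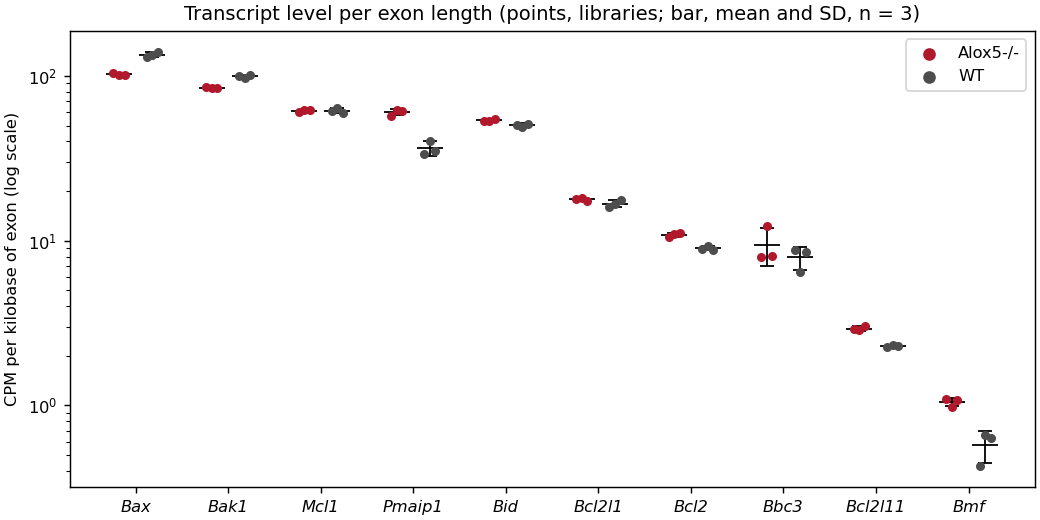
CPM per kilobase of exon (y axis, log scale) for each gene in Alox5-/- (red, left) and WT (grey, right); points are libraries and bars the mean and SD. The order runs from Bax (103 in Alox5-/- and 135 in WT) to Bmf (1.05 in Alox5-/- and 0.574 in WT), and among the 5 highest genes Pmaip1 shows the widest gap between genotypes.

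Summed by role on the same scale, the 2 effectors gave 187.5 ± 1.83 CPM per kilobase in Alox5-/- and 234 ± 5.99 in WT, and the 5 BH3-only genes gave 128 ± 4.77 in Alox5-/- and 97.4 ± 1.68 in WT. The 3 guardians gave 90.1 ± 1.02 CPM per kilobase in Alox5-/- and 87.4 ± 2.26 in WT, with overlapping libraries. That overlap rests on the choice of length. With the longest transcript of each gene the guardians gave 107 ± 1.1 in Alox5-/- and 103 ± 2.3 in WT, and the libraries did not overlap. Only transcripts were summed, and sums over genes carry no test here. Most of the gap in the BH3-only sum came from Pmaip1, which differed by far more in CPM per kilobase than Bid, Bbc3, Bcl2l11 or Bmf.

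Ratios between genes of opposing roles, and of Bax to Bak1, were taken within each library, where they do not depend on library scaling. The ratio of Bcl2 to Bax was 0.102, 0.107 and 0.109 in Alox5-/- libraries, against 0.0686, 0.0693 and 0.0626 in WT libraries, 1.59-fold higher on average in Alox5-/-. The ratio of Bcl2l1 to Bak1 was 0.210, 0.216 and 0.206 in Alox5-/- libraries, against 0.162, 0.171 and 0.175 in WT libraries. In both pairs the guardian's transcript was higher relative to the effector's in every Alox5-/- library than in any WT library. For Bcl2 and Bax this follows from the separation of each gene given above and is no further result. Bcl2l1 by itself was not called, and Mcl1 was not set against either effector.

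The ratio of Mcl1 to Pmaip1 went the other way. It was 1.06, 0.992 and 1.01 in Alox5-/- libraries, against 1.82, 1.58 and 1.71 in WT libraries, so that Mcl1 and Pmaip1 were near parity per kilobase in Alox5-/- cells. As Mcl1 was nearly level between the genotypes, this ratio restates the difference in Pmaip1 and is no further result. The ratio of Bcl2 to Bcl2l11 was 3.72 ± 0.103 in Alox5-/- and 3.92 ± 0.109 in WT, closer between the genotypes than the other pairs. The ratio of Bax to Bak1 was 1.21 ± 0.00371 in Alox5-/- and 1.36 ± 0.0393 in WT, as Bax was lower by more than Bak1.

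**Figure D4:**
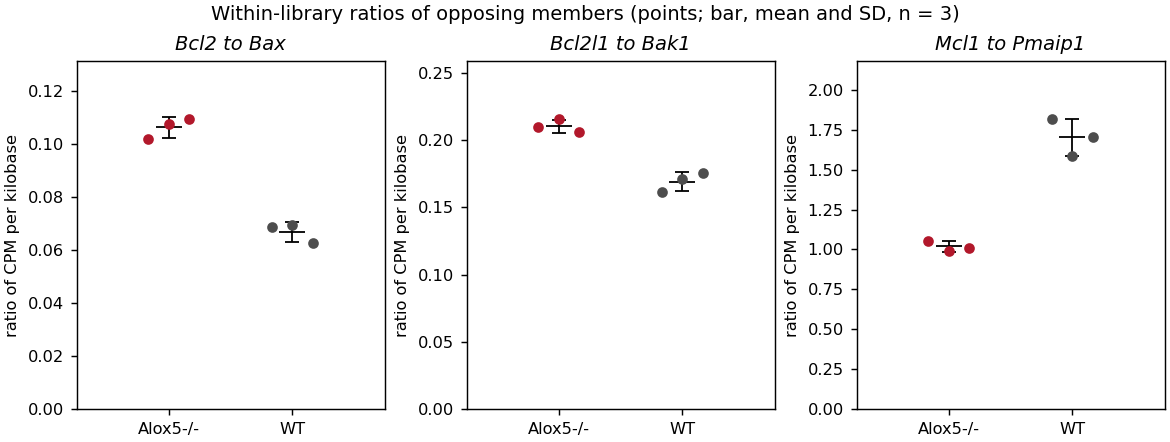
Ratio of CPM per kilobase within each library (y axis, from 0) for Bcl2 to Bax, Bcl2l1 to Bak1 and Mcl1 to Pmaip1 in Alox5-/- (red, left) and WT (grey, right); points are libraries and bars the mean and SD. The first 2 ratios are higher and the third is lower in all 3 Alox5-/- libraries than in any WT library.

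Of 17 other BCL2 homologues and BH3-only genes listed, 9 were tested, 5 were higher in Alox5-/- cells and none was lower, against 26.8% higher and 27.0% lower over all tested genes. Their median log2 fold change was 0.09. The count was 3 higher and none lower without Alox5-/- replicate 3, and 4 higher and 2 lower without WT replicate 2. Bcl2l2, which encodes the guardian BCL-W, was 54.4 ± 1.88 CPM in Alox5-/- cells and 43.9 ± 2.57 CPM in WT cells (log2 fold change 0.31; edgeR adjusted p = 7.47e-05). The mitophagy receptors Bnip3l (0.49) and Bnip3 (0.82), known for their induction by low oxygen, rose as well, Bnip3 with a wide spread in WT (38.3 ± 1.62 CPM in Alox5-/- cells and 22.0 ± 8.18 CPM in WT). Bcl2l14 rose by 0.20 on the log2 scale, a call lost with DESeq2 (adjusted p = 0.0796) and on leaving out replicate 1 or 3 of either genotype (adjusted p = 0.0510 to 0.117). The sensitizer Bad had a log2 fold change of -0.14 and was not called (edgeR adjusted p = 0.0546). The Bcl2a1 guardians, near-identical copies in a table that does not assign reads mapping to several places, had 2 to 48 counts over all 6 libraries and were not tested. Hrk had no count.

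Transcription factors and their partners known to act on BCL2 family genes moved in both directions. Of 22 tested, 11 were higher and 6 lower, where all tested genes had 26.8% higher and 27.0% lower (median log2 fold change of the list 0.13). Ddit3, which encodes the stress factor CHOP, and Trib3, a pseudokinase it induces, rose most, at 105 ± 7.83 CPM in Alox5-/- cells and 17.6 ± 0.384 CPM in WT for Ddit3 (log2 fold change 2.57; edgeR adjusted p = 1.09e-13) and a log2 fold change of 1.88 for Trib3. CHOP is known to raise BIM in stressed cells. Runx1 (0.65) and the cytokine-activated factor Stat5b (0.50) rose too, while its close relative Stat5a (-0.31), Stat3 (-0.13) and the progenitor factor Myb (-0.23), known to sustain Bcl2 in myeloid cells, fell. Trp53, which encodes p53, was 128 ± 7.65 CPM in Alox5-/- cells and 158 ± 11.1 CPM in WT cells (log2 fold change -0.31; edgeR adjusted p = 0.000103). The textbook p53 targets of the family differed from one another, with Bax lower (-0.39), Pmaip1 higher (0.73) and Bbc3 not called (0.25).

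Genes for kinases, ubiquitin ligases and partners that act on the family's proteins had 4 higher and 8 lower among 22 tested, with a median log2 fold change of -0.06. That is 12 called of 22, near the 53.8% of all tested genes, and the balance turned to 6 higher and 5 lower with upper-quartile scaling. Dusp6, the phosphatase that turns off ERK, which marks BIM for breakdown, rose by 0.87 on the log2 scale (26.3 ± 3.02 CPM in Alox5-/- cells and 14.4 ± 0.263 CPM in WT; edgeR adjusted p = 2.44e-07). Pim1, a survival kinase that inactivates BAD, rose by 0.32, and the ligase genes March5 and Btrc by 0.17 and 0.18, Btrc no longer being called without Alox5-/- replicate 1 (adjusted p = 0.0813) or WT replicate 1 (0.0576). Dynll1, the dynein light chain that binds BIM, was 127 ± 0.838 CPM in Alox5-/- cells and 157 ± 0.0244 CPM in WT cells (log2 fold change -0.31; edgeR adjusted p = 7.61e-07). Akt1 (-0.25), Gsk3a (-0.15), a kinase of the family that marks MCL1, and Mtch2 (-0.12), the mitochondrial receptor of cleaved BID, fell by small amounts.

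Downstream of the pore, genes of the apoptosome, the caspases and their inhibitors had 11 lower and 3 higher members among 19 tested, with a median log2 fold change of -0.12. Over all tested genes 27.0% were lower and 26.8% higher, and no gene of the list was called at a minimum change of 1.2-fold. Apaf1, the scaffold of the apoptosome, was 137 ± 3.23 CPM in Alox5-/- cells and 159 ± 1.29 CPM in WT cells (log2 fold change -0.22; edgeR adjusted p = 4.58e-05). The inhibitor family members Birc5 (survivin, also a mitotic protein) and Birc6 fell by 0.27 and 0.20 on the log2 scale. Among those that rose were Casp6 (log2 fold change 0.29) and Casp2 (0.13).

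In the death receptor pathway, 8 of 15 tested members fell and 3 rose (median log2 fold change -0.09), beside 27.0% lower and 26.8% higher over all tested genes. Tnfrsf10b, the receptor for TRAIL, was 11.7 ± 0.812 CPM in Alox5-/- cells and 16.7 ± 1.38 CPM in WT cells (log2 fold change -0.52; edgeR adjusted p = 4.11e-05). The adaptor Tradd (-0.28), the necroptosis effector Mlkl (-0.25) and the tumor necrosis factor receptor Tnfrsf1b (-0.18) fell as well. The receptors Tnfrsf1a (0.18) and Fas (0.67) and the deubiquitinase Cyld (0.15) rose, Fas from a low level at 2.57 ± 0.667 CPM in Alox5-/- cells and 1.62 ± 0.178 CPM in WT, no longer called without Alox5-/- replicate 3 (adjusted p = 0.0518). At a minimum change of 1.2-fold, which 17.9% of all tested genes passed, this list had 2 calls, the homologues 2, the transcription factors 5 and the kinases and ligases 1.

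**Figure D5:**
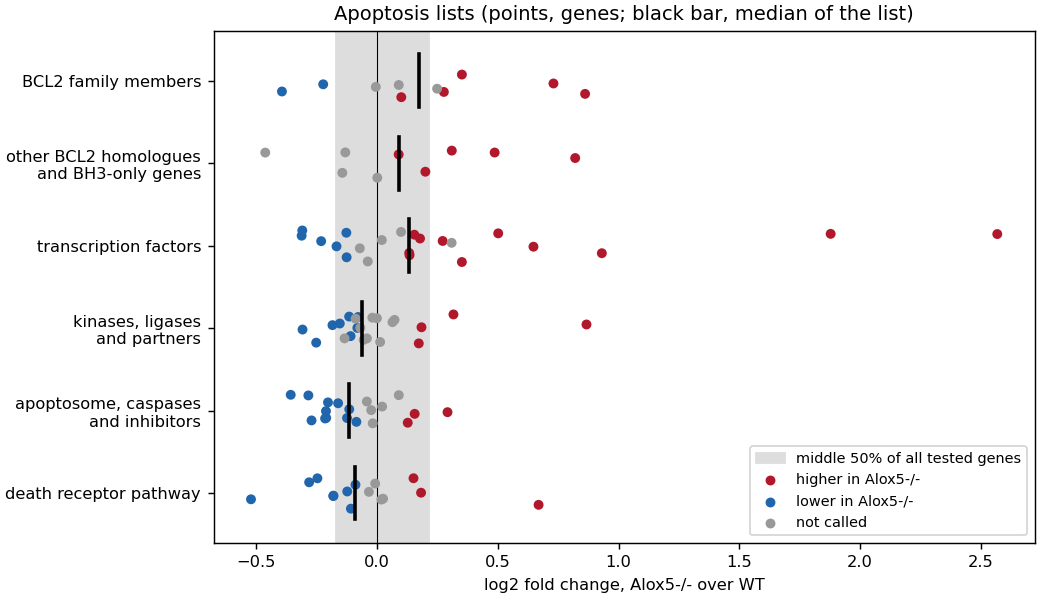
Log2 fold change of Alox5-/- over WT (x axis) for every tested gene of the BCL2 family and of 5 related lists; points are genes coloured by their call, black bars the list medians and the grey band the middle of all tested genes, from -0.17 to 0.21. All 6 medians, from -0.12 to 0.17, lie inside the band.

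Across the 6 libraries, the genes whose profiles were nearest to those of the most clearly changed members were found by the distance of centred log2 CPM, among 10210 other genes averaging 5 CPM or more. Nearest to Pmaip1 were Rmdn1 (distance 0.074), Prkar2b (0.076) and Ccdc122 (0.118), and nearest to Bax were Urm1 (0.036), Wdr41 (0.043) and Gart (0.045). These genes share the step between genotypes and a similar spread within them, and 6 libraries in 2 groups cannot separate more.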

How the data were processed

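Poly-A RNA of 3 Alox5-/- and 3 WT libraries, made with a SMARTer amplification kit per the labels' protocols, was analysed from the raw counts of reads per gene that the authors deposited. Per the submitters' processing notes, HTSeq and DESeq2 were used with mm10. Not given in the sources used here are the aligner, versions, annotation release and strand setting. The table's 5 rows that name no gene, chiefly reads aligned to several places (24.4 to 24.8% of reads), were left out.

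Counts were analysed in R 4.3.3 with edgeR 4.0.16 (TMM scaling, default expression filter, quasi-likelihood F-test without covariates, Benjamini-Hochberg adjustment over all 13705 tested genes, threshold 0.05). CPM are TMM-scaled. Exon lengths and positions came from GENCODE vM21 (mm10), which held 98.95% of the gene identifiers. The fit was tested on simulated data in which few genes changed. As 53.8% of tested genes were called here, that test does not cover such a background. A count of 0 allows up to 3 counts, 0.0786 to 0.103 CPM, covering counting error only. Same-numbered libraries of the genotypes did not deviate together (correlations of -0.02, -0.08 and 0.02), so numbers were not taken as pairs.

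The genes and lists were chosen with earlier results of these data known. Named from each related list were up to 4 higher and 4 lower called genes by smallest p, except that some genes this rule chose are not reported here. Alternatives were DESeq2 1.42.0, limma-voom (limma 3.58.1), other scalings and filters, a minimum change of 1.2-fold, the replicate block and leaving out each library.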

Additional observations from a re-analysis of the deposited data

How the results depend on the processing

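Over 14 alternatives, Bax, Pmaip1 and Bmf kept direction and call in all, with log2 fold changes of -0.42 to -0.37, 0.68 to 0.81 and 0.70 to 0.96. Bcl2, Bcl2l11 and Bak1 lost the call only at a minimum change of 1.2-fold (adjusted p = 0.510, 0.0940 and 1), as did Bid (1), which also lost it without Alox5-/- replicate 3. At that minimum 2450 of all genes and 3 of the 10 members were called, against 7379 and 7 with no minimum, because the rule itself asks for more. Leaving out a library gave 6 to 8 called members and 6583 to 7251 called genes. Bcl2l1 became called with upper-quartile scaling (log2 fold change 0.12, adjusted p = 0.0232), with the stricter filter (0.11, 0.0370) and without WT replicate 3, and Bbc3 with no filter (0.26, 0.000640); the cause was not tested. Mcl1, never called, changed sign with upper-quartile scaling (0.0223), no filter (0.0034), the stricter filter (0.01), and without Alox5-/- replicate 1 (0.0059) or WT replicate 2 (0.0232), ranging over -0.0292 to 0.0232 with a library left out. With the replicate block the calls numbered 7 members and 7029 genes, and no call of a member changed. Of 34 genes chosen from related lists, 25 lost the call at the minimum change and 4, Bcl2l14, Btrc and Fas among them, under some other alternative. Depth limits Bmf most, with 67 to 178 reads a library.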
